A study of Mus musculus with 11 samples.

Results

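The inhibitor of DNA binding genes Id1, Id2, Id3 and Id4 were followed in single germ cells of the adult mouse testis. They were picked by gene symbol, 4 of the 20265 genes on autosomes and sex chromosomes in the count table, because Id4 had shown a second, later peak in these same cells. Their levels over the stages are therefore described with no test. Testes came from 3 adult Dazl-GFP reporter mice, in which green fluorescent protein marks cells that use the germ cell gene Dazl. Live cells positive for it were sorted singly into wells and their polyadenylated RNA was sequenced by SORT-Seq, which tags each captured RNA molecule near its 3' end with a unique molecular identifier (UMI). No mouse was treated, and the labels give neither strain nor exact age. Mouse 1 was processed with CEL-Seq version 1 in 8 libraries of 96 wells, mouse 2 with version 2 in 1 library of 384 wells and mouse 3 with version 2 in 2 libraries of 384 wells, 1 of them sorted by a gate and the other by index sorting, so protocol and mouse cannot be told apart. The replicate was the mouse (n = 3).

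Id proteins have the helix-loop-helix domain through which basic helix-loop-helix (bHLH) transcription factors pair, but lack the basic region that touches DNA. By binding the E proteins, the widely used bHLH partners encoded by Tcf3, Tcf4 and Tcf12, they keep them off their E-box sites. Id genes are known targets of bone morphogenetic protein (BMP) signalling through SMAD1, SMAD5 and SMAD9, and in the testis Id4 is best known as a marker of spermatogonial stem cells. After the spermatogonial divisions, germ cells enter meiosis and pass through leptotene, zygotene and pachytene, when the X and Y chromosomes are silenced.

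Id1 lies on chromosome 2 at 152736251-152737410 (plus strand, GRCm38), Id2 on chromosome 12 at 25093799-25097140 (minus strand), Id3 on chromosome 4 at 136143497-136145755 (plus strand) and Id4 on chromosome 13 at 48261228-48266026 (plus strand). Id4 has 1 annotated transcript with 3 exons. On the minus strand A330033J07Rik and Gm49291 overlap it, sharing 82 and 171 bases with its 3849 bases of exon. The sources used here do not say whether counting used the strand, so reads from these shared bases cannot be told apart. A330033J07Rik had its own row, with 6 UMIs in the kept cells. The promoters of Id2, Id3 and Id4 were matched, 3 of 4 genes, in RefSeq for GRCm38.p6. The 250 bases before the RefSeq start of Id4, chr13:48260866-48261115 on the plus strand, are shown because Id4 alone of the 4 was high in pachytene-like cells. Capitals mark CCAAT, the letters bound by the factor NF-Y, here read on the minus strand and so printed as their reverse complement, and GGCGCC, the core of BMP response elements bound by SMAD1 and SMAD5.
Id4: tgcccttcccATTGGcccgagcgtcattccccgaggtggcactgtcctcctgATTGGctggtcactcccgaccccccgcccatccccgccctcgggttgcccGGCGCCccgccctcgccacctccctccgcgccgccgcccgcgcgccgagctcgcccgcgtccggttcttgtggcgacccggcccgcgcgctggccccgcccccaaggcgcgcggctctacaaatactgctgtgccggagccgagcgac
This window held 75.6% G and C, more than 96.4% of the 32851 promoters in the table, whose median was 52.4%. CCAAT was searched on both strands and matched 2 times, its first base 240 and 198 bases before the start. At least 1 match was present in 33.8% of promoters. GGCGCC matched 1 time, 148 bases before the start, and was present in 9.59% of promoters. The E-box CANNTG, searched on both strands, had no match, against 66.2% of promoters with one. In the window of the same length before Id2, CCAAT was matched 3 times, and the motifs GGCGCC and CANNTG were matched 1 time each. In the window before Id3 none of the 3 motifs matched. These are matches of letters and show no binding.

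Of 1920 wells, 1448 held at least 1000 UMIs and were kept as cells, with medians of 16275, 9830 and 14133 UMIs in mice 1, 2 and 3. The kept cells held 9691 Id4 UMIs against 149 of Id1, 90 of Id2 and 47 of Id3. Clustering without the Id genes, without the bHLH, BMP, SMAD and cell cycle inhibitor genes described below, and without the X, the Y and the even-numbered autosomes gave 13 stages with 1215 cells. Stage 1 was named undifferentiated spermatogonia-like, stages 2 and 3 differentiating spermatogonia-like, stage 5 preleptotene-like, stages 7 to 9 leptotene and zygotene-like and stages 10 to 13 pachytene-like. Stage 4, led by the protamine gene Prm1, and stage 6, led by Stra8 and the Sertoli gene Clu, were unnamed. For each 100 UMIs from even-numbered autosomes, the X gave 5.96 in stage 1, 7.26 in stage 8, 3.19 in stage 9 and 0.857 in stage 10. Stages 1 to 3 formed the spermatogonia class (201 cells), stages 7 to 9 the zygotene class (302 cells) and stages 10 to 13 the pachytene class (403 cells). Stage 10 did not keep its pachytene name under other settings of the clustering, and without it the Id4 log2 ratio of pachytene to zygotene, given below as 3.22, was 3.25. Another 4 clusters with 233 cells were no stage: 3 were shallow, and 1 held 29 cells of mouse 1 only.

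Id4 was highest in pachytene-like cells. Levels are given as UMIs of the gene per 1000000 UMIs (CPM). It stood at 320.3, 349.5 and 364 CPM in the pachytene cells of mice 1, 2 and 3. In zygotene cells it stood at 32.0, 24.7 and 63.8 CPM. In spermatogonia it stood at 17.9, 46.9 and 63.5 CPM. Every pachytene value lay above every zygotene and spermatogonial value, while the zygotene and spermatogonial values overlapped. The means were 344.5 ± 22.2 (SD, n = 3 mice) in pachytene, 40.2 ± 20.8 in zygotene and 42.8 ± 23.1 in spermatogonia. The log2 ratio of pachytene to zygotene was 3.32, 3.83 and 2.51 in the 3 mice, with a mean of 3.22 ± 0.66 (SD). Zygotene against spermatogonia gave 0.84, -0.93 and 0.01, so the mice differed in its sign. Of all Id4 UMIs, 89.6% were in pachytene cells, 2.70% in spermatogonia and 1.23% in zygotene cells. The cell with the most Id4 held 121 UMIs, 1.25% of the total.

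The class means hide a first peak within the spermatogonia. At stage 1 Id4 stood at 49.7, 114 and 137 CPM, a mean of 100.4 ± 45.3. It was 18.2 ± 15.5 at stage 2 and 16.0 ± 9.66 at stage 3, and the log2 ratio of stage 1 to stage 3 was 2.71 ± 0.37 (SD, n = 3 mice). Stages 4 to 9 lay between 18.9 ± 9.85 (stage 5) and 55.7 ± 20.6 (stage 9). The step up came at stage 10, with 275, 252 and 337 CPM and a log2 ratio to stage 9 of 2.43 ± 0.36. Stage 11 had the highest level in 3 of 3 mice, 381, 457 and 445.5 CPM. Stage 12 followed in 3 of 3 mice at 377, 387 and 404 CPM. Stage 13 stood lower, at 273, 272 and 278 CPM. In the order of the means, stages 11 and 12 overlapped between mice, 12 and 10 did not, 10 and 13 overlapped, and 13 and 1 did not. From stage 1 downward, each neighbour in the order overlapped the next. Mouse 1 alone had more Id4 at stage 9, 55.4 CPM, than at stage 1. The second peak at stage 11 exceeded the first at stage 1 by a log2 ratio of 2.21 ± 0.65. This order of stages 11 to 13 holds for CPM only. In Id4 UMIs per cell the means were 22.3 ± 5.52, 27.9 ± 10.5 and 26.8 ± 6.40 at stages 11, 12 and 13. The log2 ratio of stage 12 to stage 13 was 0.505 ± 0.037 in CPM and 0.017 ± 0.245 in UMIs per cell.

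**Figure D1:**
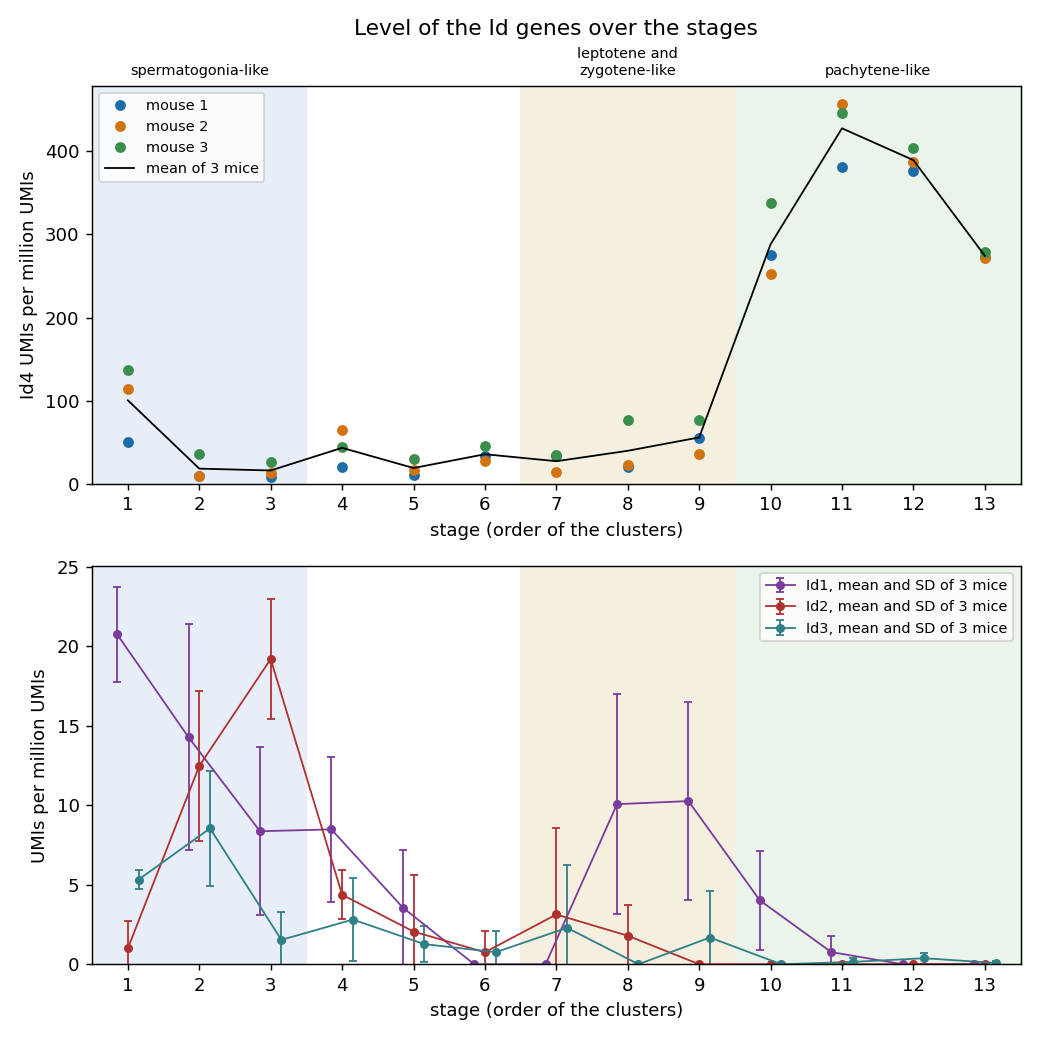
The upper panel plots Id4 in CPM (y axis) at each of the 13 stages (x axis), with points for the mice and a line for their mean. Id4 peaked at stage 1 with a mean of 100.4 and again at stage 11 with a mean of 428, while in the lower panel, with means and SD of 3 mice, Id1, Id2 and Id3 were highest in stages 1 to 3.

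Single cells showed the same course as the sums. Among cells with at least 5000 UMIs, the median was 0.741 Id4 UMIs per 10000 UMIs at stage 1 and 0 at each of stages 2 to 9. At stage 10 it was 2.58, with quartiles of 1.34 and 4.02. Of the 103 such cells of stage 10, 11 had no Id4 UMI, while the later pachytene-like stages had 0 of 91, 0 of 106 and 1 of 85 cells without one. At stage 11 the median was 4.19, with quartiles of 3.30 and 4.93. The highest value of any stage, 8.55 per 10000, was also at stage 10. These values are at full depth, and the median depth was 18009 UMIs at stage 10 against 52370.5, 66396 and 100696 at stages 11 to 13. With each cell thinned to 5000 UMIs, 70 of 103 cells had an Id4 UMI at stage 10. At stages 11, 12 and 13 it was 73 of 91, 93 of 106 and 66 of 85, so every one of these stages then held cells without one. Earlier stages differed in depth too, with medians of 26217, 27824.5 and 26800.5 UMIs at stages 1 to 3. Stages 4 to 9 had medians of only 6810 to 14751 UMIs. After the same thinning, 21 of 53 cells had an Id4 UMI at stage 1, so its median would then be 0 as well. The thinned counts were 7 of 71 at stage 2, 7 of 71 at stage 3, 4 of 79 at stage 8 and 17 of 74 at stage 9. Whether stage 10 cells differed in Id4 by more than counting error was not tested.

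**Figure D2:**
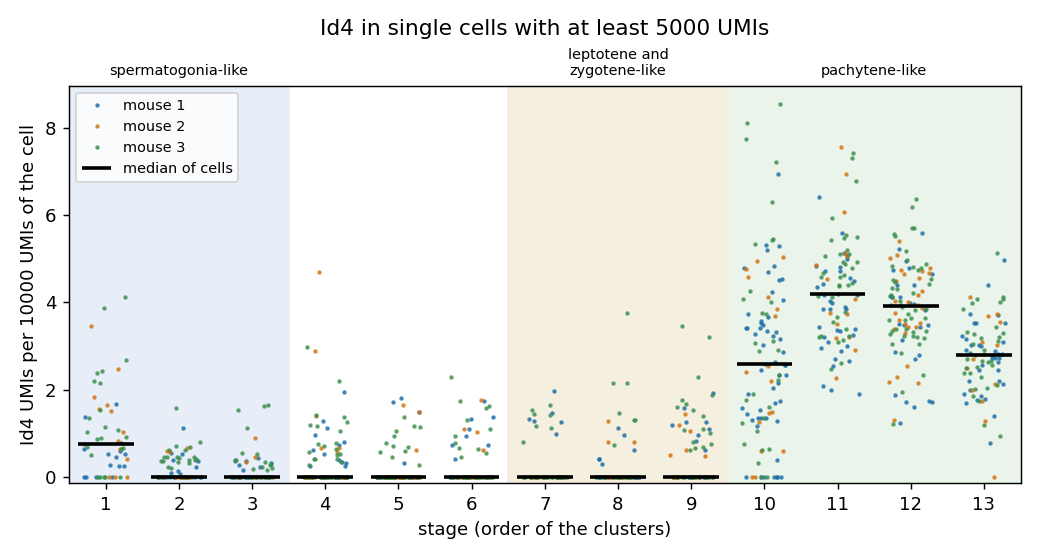
Each point is 1 cell with at least 5000 UMIs, with its Id4 UMIs per 10000 UMIs (y axis) at its stage (x axis), coloured by mouse, and bars mark the median of the cells. At full depth, which differed between stages, the medians were 0 at stages 2 to 9 and 2.58, 4.19, 3.91 and 2.79 at stages 10 to 13.

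Over stages 9 and 10 pooled, higher Id4 went with a lower X share of the cell, a measure that took no part in forming the stages. These ranges of X share were chosen after the values were seen. In cells of stages 9 and 10 with at least 5000 UMIs, Id4 stood at 56.7 ± 46.1 CPM (SD, n = 3 mice, 25 cells) where the X gave 4 or more UMIs for each 100 of the even-numbered autosomes. It was 57.1 ± 25.9 in the 32 cells with 2 to 4, 138 ± 70.9 in the 50 cells with 1 to 2 and 303 ± 39.9 in the 70 cells under 1. In the cells under 1, the mice gave 328, 257 and 323 CPM, all above the 214, 74.0 and 126 of the cells with 1 to 2. The first range held a single cell of mouse 2. Stages 9 and 10 already differed in both measures, with X shares of 3.19 and 0.857 and Id4 means of 55.7 and 288 CPM. The ranges therefore partly sort the cells by stage, and a trend within 1 stage was not tested.

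Pachytene cells held more RNA, so the classes differed more in Id4 UMIs per cell than in CPM. A pachytene cell held 20.5 ± 7.14 Id4 UMIs (SD, n = 3 mice), a zygotene cell 0.375 ± 0.227 and a spermatogonium 1.23 ± 0.718. The log2 ratio of pachytene to zygotene per cell was 5.90 ± 0.41. Against the spike-in RNA of known amount (ERCC), Id4 at stage 12 was 3.39 ± 0.48 log2 units above stage 1, while all endogenous RNA was 1.31 ± 0.47 above it. At stage 7 Id4 was -3.77 ± 1.26 and all RNA -1.89 ± 0.46 on the same scale. Id4 per cell thus lay further from stage 1 than total RNA in both directions.

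**Figure D3:**
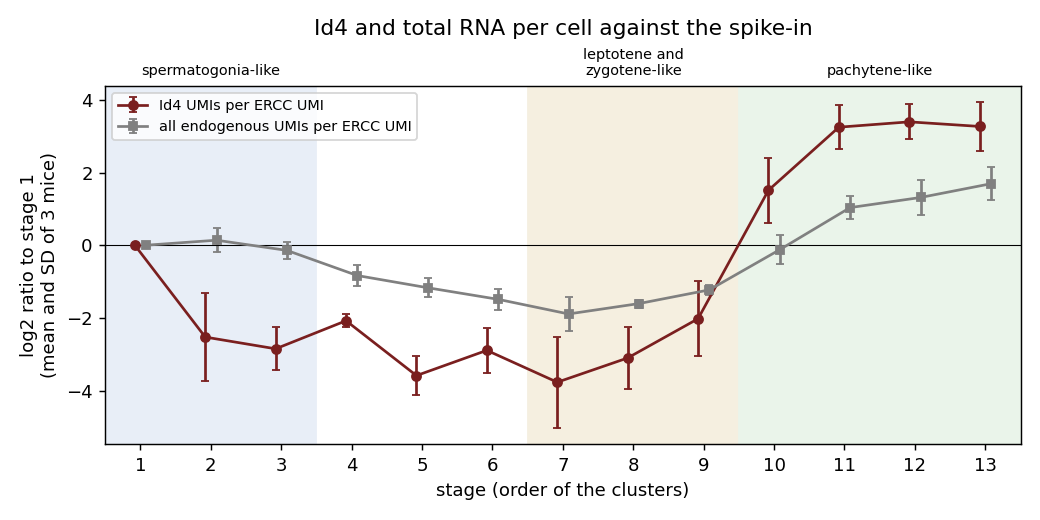
The plot gives the log2 ratio to stage 1 (y axis) of Id4 UMIs and of all endogenous UMIs, both per ERCC spike-in UMI, at each stage (x axis), as mean and SD of 3 mice. Id4 reached 3.39 at stage 12, where all RNA reached 1.31.

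Depth differs between these cells, so the share of cells with an Id4 UMI was also taken after each cell was thinned to 5000 UMIs. Before thinning, 93.9% ± 3.67 of pachytene cells had one (SD, n = 3 mice; median depth 47523 UMIs), 24.3% ± 9.23 of zygotene cells (7456 UMIs) and 46.6% ± 18.1 of spermatogonia (27029 UMIs). After thinning the shares were 79.6% ± 5.25, 13.04% ± 6.07 and 18.2% ± 8.53, with 18 pachytene cells, 89 zygotene cells and 6 spermatogonia left out as too shallow. Wells under 1000 UMIs, with a median of 342, were taken as a background: 36 of 472 (7.63%, exact 95% binomial interval 5.40 to 10.4%, counting error only) had an Id4 UMI. Whether these wells were empty or held poorly captured cells was not tested. They held 0.0869 Id4 UMIs per well, against 0.375 in a zygotene cell. Their level was 228 CPM, beside 239.8 CPM in all wells together. The mice differed in direction, with 292 in the shallow wells against 225 in all wells in mouse 1, 159 against 211 in mouse 2 and 169 against 263 in mouse 3, and 26 of the 41 UMIs were in mouse 1. The part of free RNA in the zygotene values was not tested.

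The 2 libraries of mouse 3 gave pachytene levels of 346 (gate) and 413 CPM (index), zygotene levels of 63.7 and 63.9 and stage 1 levels of 139 and 135. Id4 had 4.14, 4.55 and 4.02 reads per UMI in the 3 mice, against 3.56, 4.22 and 3.55 over all genes. Reads in place of UMIs gave a pachytene level of 386 ± 23.7 CPM.

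None of Id1, Id2 and Id3 had a pachytene peak like that of Id4, and most of their UMIs were in spermatogonia (97 of 149 for Id1, 68 of 90 for Id2 and 32 of 47 for Id3). Id1, the classical BMP target of the family, stood at 14.5, 11.5 and 17.7 CPM in the spermatogonia of mice 1, 2 and 3. It stood at 3.46, 12.3 and 7.5045 CPM in zygotene and at 0.401, 0.618 and 0.501 in pachytene. Of its 12 pachytene UMIs, 10 were in stage 10, and stages 12 and 13 had 0. Without stage 10, the stage that did not keep its name, the pachytene mean was 0.157 CPM in place of 0.507. All pachytene values lay below all others, and zygotene and spermatogonia overlapped. Pooled over mice, the ratio of pachytene to spermatogonia was 0.0310 (95% counting interval 0.0155 to 0.0566) and that of zygotene to spermatogonia 0.443 (0.256 to 0.730). Stage 1 was the highest in 3 of 3 mice, with a mean of 20.7 CPM, and no Id1 UMI was found at stages 6 and 7. A smaller, second maximum followed, with 10.1 ± 6.91 at stage 8 and 10.3 ± 6.21 at stage 9, from 19 UMIs, and 4.02 ± 3.10 at stage 10.

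Id2 was 12.7, 13.6 and 7.89 CPM in spermatogonia, 0.866, 0 and 3.75 in zygotene and 0 in the pachytene cells of every mouse. Against a floor of 3 UMIs over all pachytene cells, it was at least 95.4-fold lower there than in spermatogonia. Within spermatogonia it was lowest in stage 1, where Id4 was highest: 1.00 ± 1.74 in stage 1, 12.5 ± 4.72 in stage 2 and 19.2 ± 3.77 in stage 3, the highest in 3 of 3 mice. Id3 was 5.21, 6.26 and 4.51 CPM in spermatogonia, 0, 3.52 and 0 in zygotene and 0, 0.309 and 0.334 in pachytene. Its highest level was at stage 2 in 3 of 3 mice, 8.54 ± 3.60 CPM. With 2 zygotene and 5 pachytene UMIs of Id3, no order between those classes could be read at this depth.

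Each captured molecule counts once whatever the length of the RNA, so the 4 genes can be added. Id4 made up 54.5% of the Id UMIs of spermatogonia (35.6 to 67.9% over mice), 78.0% of those of zygotene cells (60.9 to 88.1%) and 99.8% of those of pachytene cells (99.7 to 99.9%). Of the 49 spermatogonia with an Id1 UMI, 33 had Id4 too (67.3%), as had 16 of 21 with Id3 (76.2%) and 18 of 42 with Id2 (42.9%). Over all spermatogonia 49.3% had an Id4 UMI. These shares are pooled over mice that differed in Id4, which was seen in 37.5, 34.8 and 67.5% of the spermatogonia of mice 1, 2 and 3. Within the mice the share with Id4 too was 52.6, 75 and 76.9% of the 19, 4 and 26 cells with Id1. It was 62.5, 60.0 and 100% of the 8, 5 and 8 cells with Id3. Of the 22, 7 and 13 cells with Id2 it was 36.4, 28.6 and 61.5%. In each mouse the share was above that of all spermatogonia for Id1 and Id3 and below it for Id2, from few cells. The cells were not thinned to 1 depth here, and stages 1 to 3 were pooled. Of these stages, Id1 and Id4 had their highest means at stage 1 (20.7 and 100.4 CPM). Id2 had 1.00 CPM at stage 1 and 19.2 at stage 3. The part of depth and of stage in these shares was not tested.

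Endothelial cells are a known source of Id1 and Id3. The 7 endothelial markers summed to 4.17 to 12.02 CPM over mice in spermatogonia, with a UMI of each. In zygotene cells they summed to 0.866 to 1.76, with Pecam1, Cdh5, Kdr, Esam and Tek at 0, and in pachytene cells to 3.59 to 4.64 with a UMI of each. Sertoli markers summed to 171 to 245, 353 to 464 and 44.7 to 94.8 CPM in spermatogonia, zygotene and pachytene. Most of this sum was Ctsl, with a mean of 198 of 354 CPM at stage 1 and 365 of 421 at stage 8. No other Sertoli marker had a higher mean at stage 8 than at stage 1. Wt1 had 26.7 at stage 1 and 2.01 at stage 8, and Sox9 had 9.27 and 2.62. The part of endothelial and Sertoli RNA in the Id values was not tested. Immediate early genes, which the handling of tissue can induce, summed to 152 to 268, 51.9 to 95.1 and 22.4 to 28.7 CPM in the same order. Their part in the Id values was not tested.

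Stem cell genes were highest at the first Id4 peak and low at the second. All 11 listed stem cell genes had their highest mean at stage 1, and 0 of 11 reached their stage 1 level at stage 11 or 12. Gfra1, the GDNF receptor of stem cells, had 14.7 CPM at stage 1 and 0.281 at stage 11. Ret, its signalling partner, had 238 and 0.739, the transcription factor Etv5 80.3 and 0.724, and Zbtb16, which keeps spermatogonia undifferentiated, 171 and 0.931. The stage 11 values of these genes rest on 2, 5, 5 and 7 UMIs. Gfra1, Ret, Etv5 and Zbtb16 were also among the markers that named stage 1. Markers of other kinds were high there too. Immediate early genes summed to 421 ± 127 CPM at stage 1, their highest, and 122 ± 14.6 at stage 3, and 7 of the 10 had their highest mean at stage 1. Endothelial markers summed to 13.2 ± 9.28 at stage 1, also their highest, and 1.52 ± 1.32 at stage 3. Sertoli markers summed to 354 ± 27.8 and 126 ± 24.1 at these stages and were highest at stage 6, with 770 ± 330.4. At stage 11 the 3 sums were 25.2, 5.44 and 71.8 CPM. Their part in the stage 1 levels of Id4 and Id1 was not tested.

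Other genes with a course like that of Id4 were ranked by the lowest Pearson's r over the 3 mice, between log2(CPM + 10) of the gene and of Id4 over the 13 stages, among 8000 genes. The 6 highest were Rfx8 (0.930), Cyct (0.930), Ddx4 (0.923), Arl3 (0.922), Serf1 (0.922) and Pkd2l1 (0.918). The stages of 1 mouse share libraries, and these values are descriptions. Rfx8, of the RFX transcription factor family, had 18.7 CPM in stage 1, 4.11 in stage 8 and 60.2 in stage 11. Pkd2l1, a cation channel gene, had 36.0, 11.1 and 101.5. Cyct, the testis cytochrome c, had 94.0, 113 and 551, and Ddx4, the germ cell RNA helicase Vasa, 449.5, 466 and 1096. Serf1 had 260.0, 164 and 998, and Arl3, encoding a small GTPase, 66.0, 73.6 and 412. Rfx8, Pkd2l1 and Serf1 thus had means at stage 1 above those at stage 8, as Id4 had, while those of Cyct, Ddx4 and Arl3 lay close together. For Id1 the closest were 2610524H06Rik (0.803), Stk24 (0.784) and Zfp335 (0.779), for Id2 Cebpz (0.775), Dusp2 (0.766) and Fam136a (0.694), and for Id3 Hnrnpa1 (0.744), Sap130 (0.720) and Slc12a7 (0.702). These likenesses rest on the 149, 90 and 47 UMIs of Id1, Id2 and Id3 and are limited by counting. Hnrnpa1 stood at 58.6 ± 95.7 CPM (SD) at stage 1, so its level differed widely between mice.

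The E proteins, to which Id proteins bind, were tested between the classes with edgeR on sums per mouse, since their genes took no part in the staging. Tcf3, encoding E12 and E47, was lower at each step. It stood at 118, 166 and 101 CPM in the spermatogonia of mice 1, 2 and 3, at 9.52, 35.2 and 22.5 in zygotene and at 4.31, 7.42 and 3.09 in pachytene. The 3 classes did not overlap. The log2 fold change was -2.51 ± 0.24 (SE) from spermatogonia to zygotene (edgeR adjusted p = 1.67e-06) and -1.97 ± 0.30 from zygotene to pachytene (edgeR adjusted p = 8.88e-05). Between the classes Tcf12, encoding HEB, fell from 126, 142 and 122 CPM to 76.2, 95.1 and 74.1 and then to 27.9, 26.6 and 19.4. Its log2 fold change was -0.58 ± 0.13 at the first step (edgeR adjusted p = 0.00165) and -1.53 ± 0.13 at the second (edgeR adjusted p = 4.70e-07). Its course over the stages was not a plain decline. It had 111 ± 10.6 CPM in stage 1 and its highest mean, 207 ± 67.7, in stage 6, which is in none of the classes. The 3 mice had 186, 282 and 152 there, each above its own stage 1 value of 114, 99.2 and 120.

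Tcf4, encoding E2-2, rose in pachytene as Tcf3 and Tcf12 fell. It stood at 55.5, 50.1 and 36.1 CPM in spermatogonia, 55.4, 44.0 and 40.3 in zygotene and 111, 94.9 and 66.6 in pachytene. Every pachytene value lay above every earlier one. Pachytene against zygotene gave a log2 fold change of 1.12 ± 0.15 (edgeR adjusted p = 2.50e-05) and zygotene against spermatogonia 0.11 ± 0.17 (edgeR adjusted p = 0.571). By stage, Tcf4 had 89.2 ± 27.5 CPM in stage 1 and 23.4 ± 5.02 in stage 3. Stage 9 had 50.4 ± 10.7, stage 10 had 101 ± 28.5 and stage 11 had 101 ± 27.7, so Tcf4 too was high in the first stage and again from stage 10 on.

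**Figure D4:**
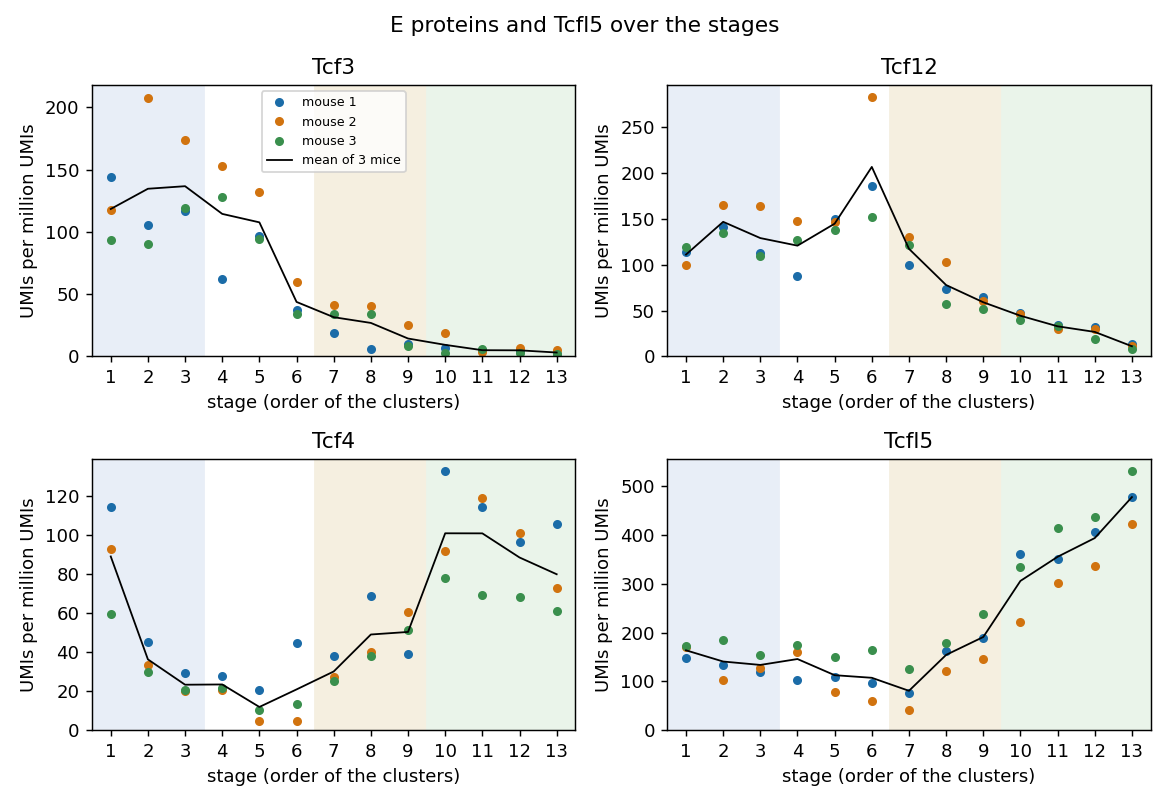
The 4 panels plot Tcf3, Tcf12, Tcf4 and Tcfl5 in CPM (y axes) over the 13 stages (x axes), with points for the mice and lines for their means. Tcf12 was highest at stage 6 with 207, Tcf3 and Tcf12 were at 3.18 and 11.2 at stage 13, Tcf4 was high at stage 1 and from stage 10 on, and Tcfl5 reached 477 at stage 13.

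Over all lists 47 of 64 genes passed the filter on low counts and were tested. Between pachytene and zygotene 7 were higher (14.9%) and 19 lower (40.4%), beside 32.3% higher and 28.4% lower of all 12580 genes tested. Between pachytene and spermatogonia 10 were higher (21.3%) and 32 lower (68.1%), beside 37.2% and 40.1%. Between zygotene and spermatogonia 9 were higher (19.1%) and 20 lower (42.6%), beside 28.5% and 33.4%. The median log2 fold changes of the listed genes were -0.62, -1.38 and -0.44, and those of all genes 0.00, -0.07 and -0.08.

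Among 20 other bHLH genes tested, 1 was higher (5%) and 7 lower (35%) in pachytene than in zygotene. Of all genes 32.3% were higher and 28.4% lower. Between pachytene and spermatogonia 2 were higher (10%) and 16 lower (80%), beside 37.2% and 40.1% of all genes. Tcfl5, a testis bHLH factor of spermatocytes, was the 1 that rose from zygotene to pachytene. It stood at 154, 109 and 189 CPM in zygotene and at 413, 343 and 458 in pachytene, with no overlap, a log2 fold change of 1.63 ± 0.14 (edgeR adjusted p = 3.20e-07). Mycn, which drives growth of progenitors, had 77.4 ± 9.60 CPM in spermatogonia, 4.45 ± 3.81 in zygotene and 1.37 ± 0.438 in pachytene. Its log2 fold change from spermatogonia to zygotene was -4.27 ± 0.35 (edgeR adjusted p = 4.33e-07). The Notch pathway repressors Hes1 and Hey1 fell over the same step, by 5.17 and 2.90 on the log2 scale, and Heyl went from 32 of 6307190 UMIs to 0 of 2788893. Tcf15, a bHLH gene of primed progenitors, went from 23.1 ± 5.88 to 0.601 ± 0.522 CPM. Mxd3, a partner of MAX, had 45 UMIs in spermatogonia and 0 in pachytene, at least 54.5-fold lower against a floor of 3 UMIs over the group. Mxd1, of the same family, was higher in zygotene than in spermatogonia by 1.79 ± 0.24 (edgeR adjusted p = 3.03e-05). The clock gene Clock was higher there by 0.71 ± 0.14 (edgeR adjusted p = 0.000778), a call lost at clustering resolution 0.5 (0.24). Sohlh2, a bHLH factor of spermatogonia, fell by 1.33 on the log2 scale from zygotene to pachytene, while its change from spermatogonia to zygotene, 0.18 ± 0.19, was not called. Its partner Sohlh1, a naming marker and so not tested, had 128 ± 16.1 CPM in spermatogonia and 1.08 ± 0.519 in pachytene.

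In the BMP pathway, the signal known to induce Id genes, 2 of 6 ligand genes in the table passed the filter. Bmp7 stood at 44.7, 70.9 and 62.3 CPM in spermatogonia and at 9.52, 1.76 and 0.938 in zygotene, a log2 fold change of -3.98 ± 0.87 (edgeR adjusted p = 0.00147). Its pachytene values were 13.3, 0.927 and 0.501, the highest in mouse 1. Bmp8b, a ligand of germ cells, had 15.2, 0.309 and 0.250 CPM in pachytene, almost all in mouse 1, and was not called in any comparison. Of 5 receptor genes tested, 2 were higher (40%) and 1 lower (20%) in zygotene than in spermatogonia, beside 28.5% and 33.4% of all genes. Between pachytene and zygotene 0 were higher and 3 lower (60%), beside 32.3% and 28.4%. The type II receptor gene Bmpr2 stood at 43.6, 51.1 and 51.5 CPM in spermatogonia, 69.3, 95.1 and 87.2 in zygotene and 7.42, 8.34 and 5.34 in pachytene. The classes did not overlap. Pachytene against zygotene gave -3.40 ± 0.19 (edgeR adjusted p = 8.57e-09), and zygotene against spermatogonia 0.86 ± 0.17 (edgeR adjusted p = 0.000696), a call lost at clustering resolution 0.5 (0.25). Acvr2a, the activin type II receptor, also peaked in zygotene, at 71.0, 82.8 and 80.7 CPM, against 30.0, 25.3 and 20.6 in pachytene. Acvr2b, its close relative, fell from 80.2 ± 5.62 in spermatogonia to 5.42 ± 2.02 in zygotene, and Bmpr1a, a type I receptor, from 78.7 ± 10.99 in zygotene to 42.0 ± 6.0 in pachytene.

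Of 8 SMAD genes and regulators, 3 were higher (37.5%), 4 lower and 1 not called in pachytene against zygotene, beside 32.3% higher and 28.4% lower of all genes. Smad1, a direct effector of BMP receptors, stood at 52.1, 72.0 and 59.7 CPM in spermatogonia, 7.79, 7.05 and 10.3 in zygotene and 33.7, 39.3 and 35.2 in pachytene. Zygotene lay below both other classes in every mouse, and pachytene against zygotene gave 2.24 ± 0.24 (edgeR adjusted p = 3.54e-06). Pachytene against spermatogonia gave -0.44 ± 0.16 (edgeR adjusted p = 0.0196), a call lost without mouse 1 (-0.27), without mouse 2 (-0.44), without stage 10 (-0.24), at clustering resolution 0.5 (-0.05), without the mouse as a block (-0.45) and with reads in place of UMIs (-0.45). Smad5, the second BMP effector, ran the other way, with 41.0 ± 3.23, 90.3 ± 16.8 and 51.4 ± 11.5 CPM in the 3 classes. Smad9, the third, had 3.88 ± 2.61, 1.49 ± 1.34 and 7.91 ± 1.77 CPM, from 24, 5 and 215 UMIs. Its rise from zygotene to pachytene (2.44 ± 0.74, edgeR adjusted p = 0.0115) was not called without mouse 2 (2.16). Smad4, the shared partner of all SMAD pathways, fell in pachytene by 1.71 on the log2 scale, from 107 ± 11.7 to 30.0 ± 7.81 CPM. Smad7, an inhibitory SMAD, had 19.0 ± 3.38, 1.53 ± 1.42 and 0.192 ± 0.107 CPM in the 3 classes, from 124, 4 and 4 UMIs. It was lower in zygotene than in spermatogonia by a log2 fold change of -3.65 ± 0.66 (edgeR adjusted p = 0.000364). Pachytene against zygotene gave -2.72 ± 1.07 (edgeR adjusted p = 0.0408), a call lost without mouse 2 (-2.94), without mouse 3 (-1.55), without the gate library (-1.73), at clustering resolution 1.5 (-2.85) and with reads (-2.48). Smad6, the BMP inhibitor of the same kind, had 7.25 ± 2.79, 1.52 ± 1.42 and 1.16 ± 1.14 CPM, and only pachytene against spermatogonia was called (-2.64 ± 0.63, edgeR adjusted p = 0.00169). Of the ubiquitin ligases that remove SMADs, Smurf1 was higher in pachytene than in zygotene by 1.01 ± 0.13 (edgeR adjusted p = 1.97e-05), and Smurf2 was highest in zygotene at 189 ± 33.7 CPM.

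Id proteins are also known to act on the cell cycle, through pocket proteins and the inhibitors of cyclin-dependent kinases (CDK). Of 9 such genes tested, 2 were higher (22.2%) and 3 lower (33.3%) in pachytene than in zygotene, beside 32.3% and 28.4% of all genes. Between pachytene and spermatogonia 3 were higher (33.3%) and 6 lower (66.7%), beside 37.2% and 40.1%. Cdkn2d, encoding the INK4 inhibitor p19, rose at each step, from 13.03, 16.7 and 18.4 CPM to 44.1, 42.3 and 40.3 and then to 94.4, 92.4 and 102, with no overlap. The second step was 1.38 ± 0.17 on the log2 scale (edgeR adjusted p = 1.01e-05). Cdkn2c, encoding the related p18, had 22.4 ± 14.2, 60.4 ± 22.0 and 111 ± 13.53 CPM in the 3 classes. Rbl1, encoding the pocket protein p107, was higher in zygotene (146 ± 15.02) than in spermatogonia (55.6 ± 7.51) by 1.503 ± 0.143 (edgeR adjusted p = 1.49e-06). Rb1, the retinoblastoma gene, fell from 74.5 ± 12.1 in zygotene to 20.8 ± 1.77 in pachytene. Cdkn2a, a target that Id proteins are known to repress in other cells, had 81.1 ± 31.2 CPM in spermatogonia and 3.27 ± 1.67 in pachytene (-4.35 ± 0.24, edgeR adjusted p = 2.12e-09). Cdkn1b, Cdkn1c and Cdkn2b were also lower in pachytene than in spermatogonia, by 3.71, 1.79 and 2.31 on the log2 scale. Cdkn1a, encoding p21, had -0.99 ± 0.42 (edgeR adjusted p = 0.0466), a call lost without any 1 of the mice (-0.56 to -1.27).

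**Figure D5:**
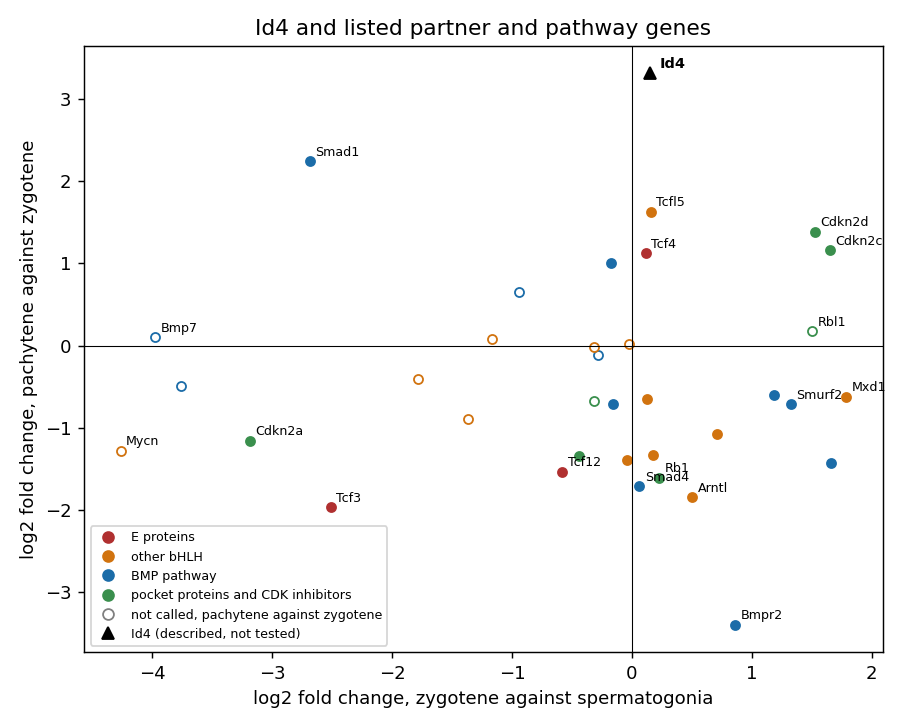
For the 35 tested listed genes with at least 10 UMIs in each class, and for Id4, the x axis gives the log2 fold change of zygotene against spermatogonia and the y axis that of pachytene against zygotene, so that zygotene enters both. Filled circles passed the test on the y axis. Id4, at 0.15 and 3.31, lies above all the listed genes drawn.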

How the data were processed

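The authors deposited tables of UMI counts, read counts and transcripts per gene and well. Reads were mapped to mm10, and BWA 0.7.10 is among the tools named, per the submitters' processing notes. The counting tool is not given in the sources used here. The UMI count was the main value, and the reads and the transcripts, estimated counts that the authors deposited and that were rounded here, were alternatives. The 768 wells of mouse 1 stand in another order there and were matched by profile (lowest correlation 0.973). Its 8 libraries could not be told apart by their column names and were pooled. Wells with 1000 UMIs or more, over autosomes, X and Y without spike-ins, eGFP and Rn45s, were cells. As 1 cell was sorted per well, no doublet caller was run. No cell names were shared between libraries, and 0 kept cells had identical counts. Total UMIs were 16682671, 5866174 and 18032562 in mice 1, 2 and 3, with 3.56, 4.22 and 3.55 reads per UMI. The number of UMIs of a gene sets the precision of its levels.

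Seurat 5.3.0 anchors joined the mice on 1500 variable genes (15 dimensions), and cells were clustered with Leiden (leidenalg 0.10.2, scanpy 1.11.5, 15 components, 15 neighbours, resolution 1.0). Clusters were ordered by diffusion pseudotime if they had at least 10 cells in each of 2 or more mice and were not named somatic or spermatid. Their median depth also had to be at least 1 in 3 of the median of all kept cells. This depth rule left out shallow clusters whose markers named them differentiating spermatogonia-like or pachytene-like. A stage was named where at least 3 markers were seen in 10% of its cells or more and the class had more markers among its 10 leading genes than any other, or none of the classes had any. Id4 was itself among the leading genes of stage 11. Sums per mouse and class (9 sums) were tested with edgeR 4.0.16 (quasi-likelihood, TMM, filterByExpr, the mouse as a block because each mouse gave all classes, Benjamini-Hochberg over 12580 genes, threshold 0.05), after a test on simulated data. With the mouse as a block, each test set the mean difference between classes against how much that difference varied over these mice. The estimate of this variation drew on all genes tested. The members and gene lists were chosen with earlier results of these data known. Genes named from a list were the called ones with the largest changes, up to 6 in each direction, and every E protein. Sohlh1, Sohlh2 and Bmp8b were added after their values were seen. Gene models are GENCODE M21. Alternatives were other tables, minimums, clusterings, scalings, filters and tools, and leaving out each mouse, the gate library or stage 10.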

Additional observations from a re-analysis of the deposited data

Results flagged for a closer look

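Id4 was present outside the cells used for the comparisons. The 472 wells under 1000 UMIs held 41 Id4 UMIs, 228 CPM, with 0.117, 0.0794 and 0.0538 UMIs per well in mice 1, 2 and 3. The same wells held 2 Id1 UMIs, 1 Id2 UMI and 0 Id3 UMIs. The 4 clusters that were no stage held 483 Id4 UMIs. Of these, 397 were in the 29 deep cells of mouse 1, whose leading genes include the pachytene marker Tcp10b and whose level, 367 CPM, lay between those of stages 10 and 11 in that mouse. The other 3 clusters, with medians of 1754 to 2235 UMIs per cell, had 87.5, 129 and 234 Id4 CPM.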

How the results depend on the processing

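Of 1680 values under an alternative, 1596 were tallied as kept, 64 were no longer called, 2 became called, 16 moved and 2 changed sign. Kept levels and fold changes held their direction and their side of the threshold or stayed within 1 SD. The 1596 also include every count of called genes, each under 14 alternatives. Such counts have no direction, threshold or SD and were tallied as kept even where they differed, as given below. The Id4 log2 ratio of pachytene to spermatogonia lay between 2.71 and 3.53 under all alternatives. That of pachytene to zygotene lay between 2.92 and 3.63, except at resolution 0.5, where stage 10 joined the leptotene and zygotene-like cluster and the ratio was 1.68. Zygotene against spermatogonia was then 1.19. Tcf4 in zygotene against spermatogonia, not called, was -0.046 without the gate library and -0.069 to 0.22 when a mouse was left out, lowest without mouse 3. The cause was not tested. Without the replicate block for the mouse, 3167 genes were higher and 2666 lower in pachytene than in zygotene, against 4063 and 3570 with it. Of the listed genes 5 were higher and 17 lower. Leaving out each mouse gave 6 to 8 higher and 14 to 18 lower. Without the block 11 single calls were lost, among them Smad9, Cdkn2a and Cdkn2c in pachytene against zygotene (2.40, -1.13 and 1.12). Scaling by RLE in place of TMM moved the median of all genes in pachytene against zygotene from 0.00 to -0.04. Id3 is listed at 0 in mouse 1 in the transcripts table, so its spermatogonial level there was 3.58 CPM. Levels from fewer than 20 UMIs, such as Id1 in pachytene with 12, are limited by counting.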
